A study of Mus musculus with 18 samples.

Results

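Replication-dependent histone genes were followed in 18 RNA sequencing libraries of mouse epidermis. They were taken as the protein-coding genes whose GENCODE M21 symbol starts with Hist1h, Hist2h, Hist3h or Hist4h and that had at least 20 counts over the 18 libraries. Of the 56246 genes in the count table, 49 met this rule. They comprised 6 genes of the linker histone H1, 7 of H2A, 14 of H2B, 10 of H3 and 12 of H4, and held 62768 counts in all. Of the 67 protein-coding histone genes by symbol, 12 had no count and 6 had 1 to 19 counts, 46 in all. The genes just inside the minimum were Hist1h2ad with 21 counts and Hist1h4n with 22, and those just outside were Hist1h2ab and Hist1h2af with 14 each.

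H2A, H2B, H3 and H4 are the core histones around which DNA is wound in the nucleosome, and H1 binds the DNA where it enters and leaves it. The genes that supply them during DNA replication lie in clusters, mostly lack introns, and are transcribed mainly in S phase. Their mRNAs characteristically end shortly after a conserved stem-loop instead of carrying a poly(A) tail. The stem-loop is bound by the protein SLBP, and U7 small nuclear RNA guides the cut. Some of these genes are also known to give polyadenylated transcripts, particularly in cells that have left the cell cycle. Replacement histones such as H3.3 are made outside S phase from ordinary polyadenylated mRNAs.

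The epidermis was scraped from the dorsal skin of male mice aged 10 weeks, and polyA RNA is given as the molecule in the labels. The genotypes were WT, OPN-null, which lacks osteopontin (Spp1), and K14-OPN, which carries an osteopontin transgene under the keratin 14 promoter on the OPN-null background. The labels give 1 protocol for all samples, in which mice were shaved 48 h before UVB at 180 mJ/cm2 and the skin was taken 24 h after it. How the unirradiated mice were handled is not stated apart from this. Without UVB, WT had 2 libraries, OPN-null 3 and K14-OPN 3. After UVB, WT had 3, OPN-null 4 and K14-OPN 3. Libraries carry the name of their group and their label's number. Separate animals within a group are not mentioned in the labels, and the spread that p-values rest on may therefore be technical. In whole tissue, fewer cells of a type and less RNA per cell cannot be told apart.

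The stem-loop is shown first because the way a histone transcript ends bears on whether a library that selects poly(A) tails can hold it. The motif GGNNCTTTTNAGNNCC, searched on the transcript strand only, occurred in an annotated GENCODE M21 transcript of 36 of the 49 genes (73.5%). Among the longest transcripts of 21951 protein-coding genes it occurred in 71 (0.323%), of which 28 had no Hist1h to Hist4h symbol. The sequences below are 5′ to 3′ on the transcribed strand of GRCm38, with the stem-loop in capitals. The genes shown cover the 5 classes, every stem-loop spelling found, and the genes on which the results turn.
Hist1h1c (chr13:23739507-23739532, plus strand): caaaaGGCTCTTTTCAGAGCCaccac
Hist1h1e (chr13:23621777-23621802, minus strand): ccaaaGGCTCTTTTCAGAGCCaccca
Hist1h2ac (chr13:23683472-23683497, minus strand): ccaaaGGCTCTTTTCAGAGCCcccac
Hist2h2ac (chr3:96220413-96220438, minus strand): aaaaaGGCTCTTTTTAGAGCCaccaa
Hist1h2bj (chr13:22043633-22043658, plus strand): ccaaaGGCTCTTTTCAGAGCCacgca
Hist1h2bk (chr13:22036295-22036320, plus strand): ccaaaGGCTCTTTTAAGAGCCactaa
Hist1h3a (chr13:23761885-23761910, minus strand): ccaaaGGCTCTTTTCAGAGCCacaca
Hist1h3c (chr13:23745042-23745067, minus strand): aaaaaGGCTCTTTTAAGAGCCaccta
Hist1h4d (chr13:23581945-23581970, plus strand): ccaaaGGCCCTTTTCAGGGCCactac
Hist1h4i (chr13:22040961-22040986, minus strand): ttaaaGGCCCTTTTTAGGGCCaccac
Hist1h4b (chr13:23757361-23757386, plus strand): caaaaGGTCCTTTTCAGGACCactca
Hist2h4 (chr3:96262934-96262959, minus strand): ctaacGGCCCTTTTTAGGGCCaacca

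The stem differed by class. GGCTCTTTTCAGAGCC was found in 3 H1, 4 H2A, 8 H2B and 4 H3 genes, and its variant with A after the T run, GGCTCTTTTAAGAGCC, in 1 H1, 2 H2B and 3 H3 genes. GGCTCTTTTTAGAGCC was found in Hist2h2ac alone. The 10 H4 genes with a motif had another stem: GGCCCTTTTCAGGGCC in 6, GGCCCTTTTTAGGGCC in Hist1h4i and Hist2h4, and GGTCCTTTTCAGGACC in Hist1h4b and Hist1h4j. Thus no H4 gene shared its 16 bases with a gene of another class.

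On chromosome 13 of GRCm38, 14 of the genes lie between 21715763 and 22043676 and 27 between 23531050 and 23764406. A further 5 lie on chromosome 3 (96219865 to 96263311), 2 on chromosome 11 (58948920 to 58956830) and 1, Hist4h4, on chromosome 6. Near-identical copies limit what short reads can assign. The share of a gene's 50-base windows found nowhere else in the annotated transcripts ranged from 6.1% for Hist1h3h to 100%, with a median of 56.2%. It was lowest in H3 (median 42.8%) and highest in H1 (98.8%), and values of genes with a low share are therefore uncertain. Among these are Hist1h3h, Hist1h3i (12.4%), Hist1h2bn (13.6%), Hist1h4n (14.4%) and Hist1h2bl (17.2%). Hist1h4b (24.1%), Hist1h2bk (25.8%), Hist1h3e (26.6%) and Hist1h4k (28.5%) are others. All 7 H2A genes and Hist1h4b overlap a gene on the opposite strand, and the gene model of Hist1h2be overlaps Hist1h1e on the same strand. Since the use of strand in counting is not stated, reads of these neighbours cannot be told apart.

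Gene counts per library lay between 3696865 and 26068614, with a median of 10680000. The labels were checked against Spp1, which had 0 to 74 counts in the 7 OPN-null libraries (0 to 7.57 CPM, counts scaled to library size by TMM) and 34.5 to 758 CPM in the 6 K14-OPN libraries. In WT it ranged from 2.53 to 45.2 CPM without UVB and from 13.2 to 385 CPM after it, so that the lowest WT library lay within the OPN-null range. The summed level of 6 keratinocyte markers was 9660 to 19400 CPM in the 7SK-rich libraries, defined next, and 3480 to 34800 CPM in the others. Markers of other cells were present too. Of the unirradiated libraries, WT 10 and K14-OPN 11 stood apart in hair shaft keratins, which reached 40300 CPM, and OPN-null 9 gave 84.3% of its counts to 10 genes. Unirradiated OPN-null 8 gave 65.9% of its counts to 10 genes. Unirradiated K14-OPN 1 had 8030 CPM of neutrophil markers, against 7.65 to 207 CPM in the other unirradiated and 179 to 8290 CPM in the irradiated libraries. OPN-null 8 and K14-OPN 1 are not among the 3 libraries said below to stand apart.

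The libraries are of 2 kinds that the labels do not mention. In 6 libraries, 1 per group, counts of the small nuclear RNA 7SK (Rn7sk) exceeded those of Lars2 (66654 to 383142 against 1216 to 6763 counts), and in the other 12 Lars2 exceeded Rn7sk (149186 to 822109 against 295 to 2904). The names 7SK-rich and Lars2-rich are used for them. Reads with several alignments were 12.1 to 17.7% of all reads in the former and 18.8 to 29.3% in the latter. Because the kinds were formed from these counts and not by the study, a difference between them compares libraries and not conditions. Every comparison of conditions below was adjusted for kind or made within 1 kind.

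Histone transcripts were far more abundant in the 7SK-rich libraries. The 49 genes together had 323, 361, 363, 397, 476 and 638 CPM in the 6 7SK-rich libraries. In the 12 Lars2-rich libraries they had 65.1 to 182 CPM, with a median of 101. The kinds did not overlap. Gene by gene, every 7SK-rich library lay above every Lars2-rich one in 27 of the 49, against 7.49% of the 23414 genes with at least 20 counts. Per library this was 6719 to 12584 histone counts from 44 to 49 of the genes in 7SK-rich libraries, against 102 to 3859 counts from 9 to 43 genes in Lars2-rich ones. A gene at 0 in a Lars2-rich library was thus often below what its depth could show.

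**Figure D1:**
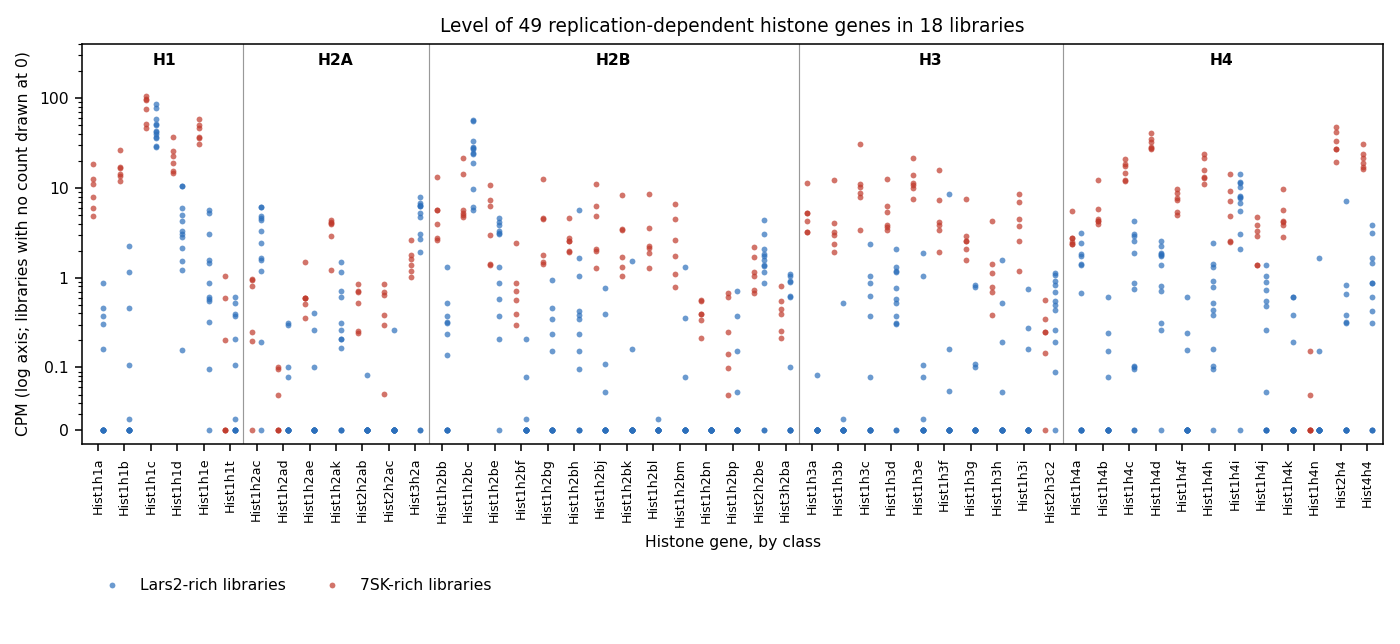
CPM (log axis, with libraries that had no count drawn at 0) of each of the 49 histone genes, grouped by class, 1 point per library and coloured by library kind. In 27 of the 49 genes every 7SK-rich library lies above every Lars2-rich library, whereas Hist1h1c, Hist1h2bc and Hist1h4i overlap at high levels in both kinds.

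Which genes made up this pool also differed. Hist1h1c, which encodes the linker histone H1.2, was the leading gene of both kinds, with 18% of histone counts in the 7SK-rich libraries and 40.8% in the Lars2-rich ones. Hist1h2bc took 24.3% in the Lars2-rich libraries and Hist1h4i 8.36%. Scaled to exon length, the order in 7SK-rich libraries was Hist1h1c (mean 49.9 RPKM, CPM per kilobase of exon), Hist1h4h (34.6), Hist1h4d (28.0), Hist1h1b (22.5), Hist1h1e (22.3) and Hist2h4 (19.9). In Lars2-rich libraries it was Hist1h1c (30.7 RPKM), Hist1h2bc (22.8) and Hist1h4i (10.1), followed at a distance by Hist3h2a (1.99) and Hist1h4a (1.95). By class, as shares of counts not corrected for length, H4 held 30.1 to 40.2% of histone counts in 7SK-rich libraries and 5.12 to 20.8% in Lars2-rich ones, while H2B held 5.0 to 15.9% and 7.84 to 37.9%. H2A held 0.882 to 2.8% in 7SK-rich libraries, the smallest share there among the 49 genes. That share leaves out Hist1h2al, which is annotated as a pseudogene and was at 9.17 to 41.7 CPM in them.

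Between the kinds, 34 of the 41 genes that passed the count filter were higher in the 7SK-rich libraries and 2 were lower (edgeR quasi-likelihood test with Benjamini-Hochberg adjustment over 18910 genes). Of all genes tested, 26.2% were called higher and 15.7% lower. The median log2 fold change was 4.87 over the 41 histone genes and 0.26 over all genes. The filter could keep a gene with reads in the 7SK-rich libraries alone, so that a gene kept in this way had to differ, and the counts and medians of tested genes describe only those kept. Over all 49 genes, tested or not, 41 had a higher mean CPM in the 7SK-rich libraries and 8 did not. The filter left out 8 genes with few counts: Hist1h1t, Hist1h2ad, Hist1h2ae, Hist2h2ab, Hist2h2ac, Hist1h2bn, Hist1h2bp and Hist1h4n. Among them Hist1h2bn had 48 counts in the 7SK-rich libraries and 0 in the Lars2-rich ones, at least 17.5-fold higher against a floor of 3 counts over the 12 libraries.

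**Figure D2:**
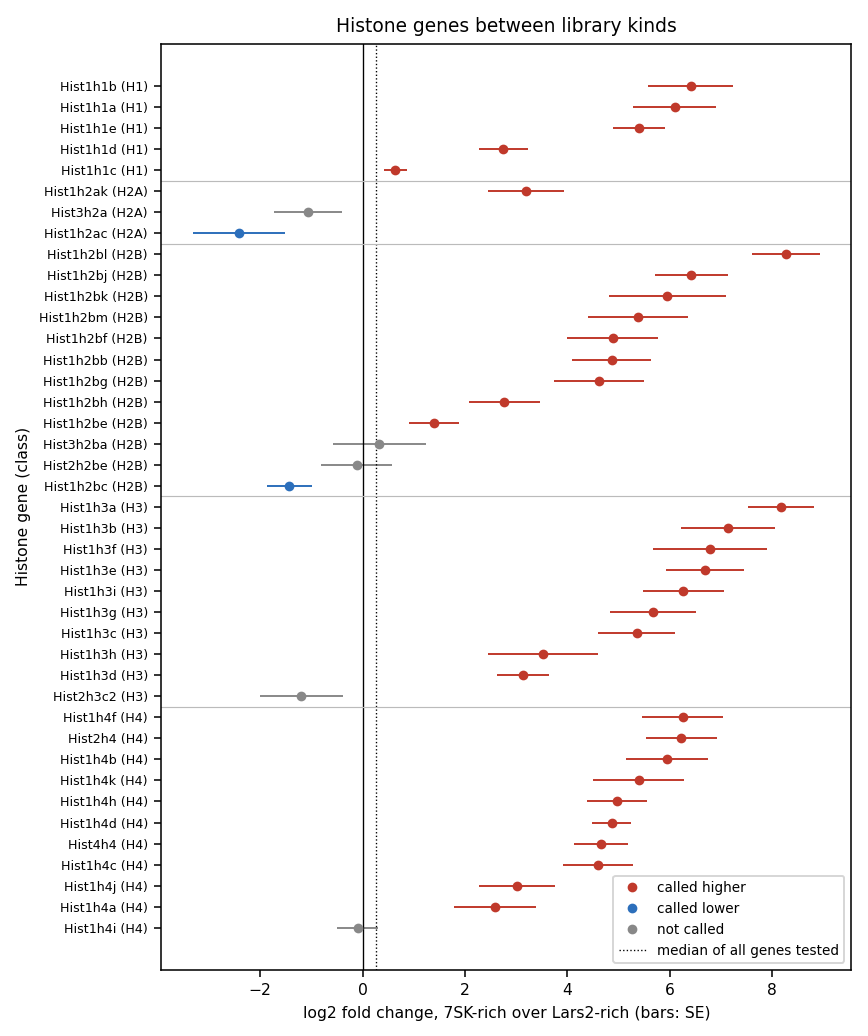
log2 fold change of 7SK-rich over Lars2-rich libraries for the 41 tested histone genes by class, with bars of 1 SE, the call by colour and a dotted line at the median of all genes tested (0.26). The called genes run from −2.42 for Hist1h2ac to 8.27 for Hist1h2bl, and all but 1 gene each of H3 and H4 are called higher.

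Of the linker histones, 5 of 5 tested were higher in the 7SK-rich libraries, by very unequal amounts. Hist1h1e (H1.4) was at 30.5 to 58.7 CPM in the 7SK-rich libraries and at 0 to 5.70 CPM in the Lars2-rich ones, a log2 fold change of 5.40 ± 0.516 (SE; edgeR adjusted p = 1.47e-06). Hist1h1c was at 46.0 to 104 CPM and 28.4 to 84.7 CPM, a change of 0.64 ± 0.224 (edgeR adjusted p = 0.0306), and the kinds overlapped. This call was lost when irradiated K14-OPN 1, 2 or 3, unirradiated K14-OPN 2 or unirradiated OPN-null 8 or 10 was left out (edgeR adjusted p = 0.0501 to 0.134, with a change as low as 0.43). Hist1h1b and Hist1h1a, which encode H1.5 and H1.1, had changes of 6.41 and 6.10, and Hist1h1d (H1.3) of 2.75.

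In H3, 9 of 10 genes were higher in the 7SK-rich libraries. Hist1h3a was at 3.21 to 11.3 CPM there and had 3 counts in all 12 Lars2-rich libraries against 622, a pooled ratio of 226 (95% counting interval 77.0 to 1100). Hist1h3b had 518 counts against 7 (log2 fold change 7.15 ± 0.921), and Hist1h3e was at 7.56 to 21.7 CPM against 0 to 1.87 (6.69 ± 0.769). The exception, Hist2h3c2 on chromosome 3, was at 0 to 0.558 CPM against 0 to 1.12, with a change of −1.20 ± 0.809 that did not pass the test (edgeR adjusted p = 0.249). All of these H3 genes encode the replication-coupled H3.1 or H3.2.

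In H4, 10 of 11 genes were higher in the 7SK-rich libraries. Hist1h4d was at 27.2 to 40.9 CPM against 0 to 2.55 CPM (log2 fold change 4.87 ± 0.372), and Hist2h4 at 19.2 to 47.4 CPM against 0 to 7.12 CPM (6.23 ± 0.695). The H4 genes encode the same protein, yet 1 of them did not share the difference. Hist1h4i was at 2.47 to 14.1 CPM in the 7SK-rich and 0 to 14.1 CPM in the Lars2-rich libraries, a change of −0.10 ± 0.397 (edgeR adjusted p = 0.865).

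H2B divided. Of 12 genes, 9 were higher in the 7SK-rich libraries, 1 was lower and 2 passed neither way. Hist1h2bl had 382 counts in 7SK-rich libraries and 1 in Lars2-rich ones, a ratio of 417 (95% counting interval 74.3 to 16500), and Hist1h2bj was at 1.28 to 10.9 CPM against 0 to 0.759 CPM (log2 fold change 6.43 ± 0.714). Hist1h2bc went the other way. It was at 4.74 to 21.2 CPM in 7SK-rich and 5.70 to 56.4 CPM in Lars2-rich libraries, a change of −1.43 ± 0.439 (edgeR adjusted p = 0.0151). The call was lost without unirradiated K14-OPN 2 (0.052) or irradiated WT 8 (0.0522). Hist2h2be and Hist3h2ba, which lie outside chromosome 13, had changes of −0.11 and 0.33. In H2A, Hist1h2ak was higher (3.2), Hist1h2ac lower (−2.42 ± 0.899, edgeR adjusted p = 0.0395) and Hist3h2a not called (−1.06). Hist1h2ac was at 0 to 0.957 CPM against 0 to 6.16 CPM. Its call was lost in 9 of the fits that leave out 1 library, namely irradiated K14-OPN 1, 2 or 3 or OPN-null 14, or unirradiated K14-OPN 2, OPN-null 8 or 10 or WT 10 or 11 (edgeR adjusted p = 0.0504 to 0.0896). It was also lost without the 3 libraries that stood apart (0.0614). Hist1h2ac and Hist1h2bc are neighbours on chromosome 13 that are transcribed away from each other.

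The difference was also read by position. On chromosome 13, 10 of 11 tested genes of the first block and 22 of 24 of the second were higher, with median log2 fold changes of 5.40 and 4.88. On chromosome 3 this was 1 of 3, Hist2h4 at 6.23, and on chromosome 11 it was 0 of 2. The gene on chromosome 6, Hist4h4, was higher at 4.66.

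The annotated end of the transcript was set beside the difference between kinds. In 15 genes the longest annotated transcript with a stem-loop ended within 100 bases of it. Of these 15, mean CPM was higher in the 7SK-rich libraries in 13, and in 9 every 7SK-rich library lay above every Lars2-rich one. The 11 that passed the filter had log2 fold changes of 4.87 to 8.18. Of the 4 that did not, Hist1h2ad had 5 counts in the 7SK-rich and 16 in the Lars2-rich libraries, Hist1h4n 4 and 18, Hist1h2bp 36 and 12, and Hist2h2ac 55 and 1. In 12 genes an annotated transcript ran on past 100 bases and held AATAAA, the usual signal for poly(A) addition. Mean CPM was higher in the 7SK-rich libraries in 10 of the 12, and in 4 every 7SK-rich library lay above every Lars2-rich one. The 10 that passed the filter had log2 fold changes of −2.42 to 6.23. Hist1h2ac, whose transcript runs 2010 bases beyond the stem-loop, and Hist1h1c, with 840 bases, were among them, but so was Hist2h4, with 1257 bases and a change of 6.23. In 9 genes the transcript ran on without AATAAA, and mean CPM was higher in 7, with 6 separated. Of the 13 without a motif in the annotated transcript it was higher in 11, with 8 separated. Several of these 13 models are short, with 312 exon bases for Hist1h4k, 381 for Hist1h2bl and Hist1h2bn, 393 for Hist1h2ak and 411 for Hist1h3h and Hist1h3i. Such a model may stop before a stem-loop, so that a missing motif need not mean a missing stem-loop. The counts of genes by annotated end are a description of gene models, with no test of a difference between them. No ends were measured in these libraries.

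**Figure D3:**
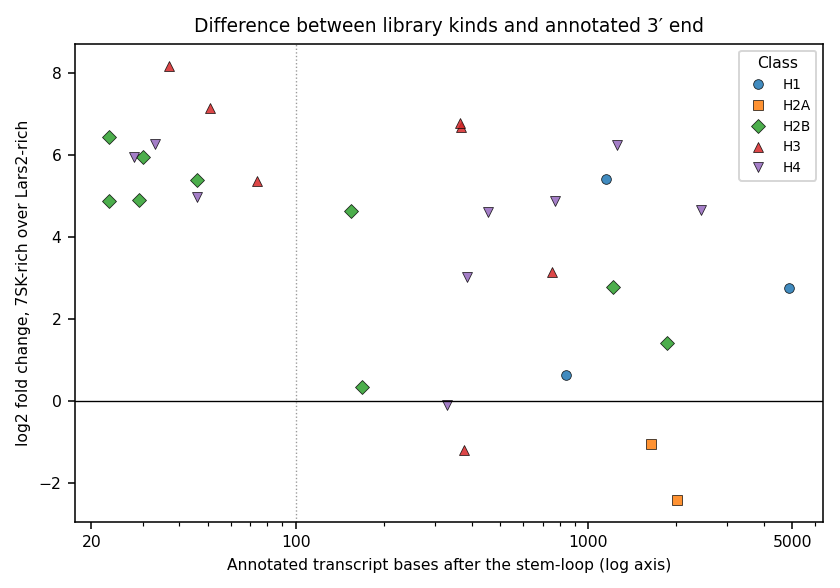
log2 fold change of 7SK-rich over Lars2-rich libraries (vertical axis) against annotated transcript bases after the stem-loop (horizontal log axis) for tested histone genes with a motif, by class, with a dotted line at 100 bases. Genes left of the line lie between 4.87 and 8.18, and those right of it spread from −2.42 to 6.79. Genes that missed the count filter are not drawn, among them 4 that end within 100 bases, of which Hist1h2ad and Hist1h4n had more counts in the Lars2-rich libraries.

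As shares of counts, genes ending within 100 bases of the stem-loop held 16.4% of histone counts in the 7SK-rich libraries (8010 counts) and 2.22% in the Lars2-rich ones (311 counts). Genes with a longer transcript and AATAAA held 39.1% and 55.6%, but 25.7% and 25.1% of the remaining counts without Hist1h1c. Genes with a longer transcript and no AATAAA held 29.8% and 13.7%, and genes without a motif 14.7% and 28.5%. Hist1h2bc, the second gene of the Lars2-rich libraries, has no stem-loop motif in its annotated transcript.

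Other gene lists were read for the same contrast, against the 26.2% of all genes called higher and 15.7% called lower. Of 11 replacement histone genes tested, 9 were lower in the 7SK-rich libraries and 0 higher, with a median of −1.03, among them H3f3a (H3.3) at −1.41, H2afy (macroH2A1) at −1.41, H2afj at −1.24 and H1f0 at −1.03. Of 12 RNAs known to lack a poly(A) tail or to be made partly without one, 10 were higher (median 3.91), such as the Cajal body RNAs Scarna6 at 6.2 and Scarna13 at 5.33. The S phase list had 4 higher and 1 lower of 37 (median 0.12), and the mitosis list 2 and 2 of 19. Genes of histone mRNA processing had 6 higher and 4 lower of 25, and histone chaperones 3 and 5 of 20. Whether the libraries were prepared in different ways is not stated and was not tested.

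After UVB, H2B genes were higher in the 7SK-rich libraries. There the 3 irradiated libraries, 1 of each genotype, were compared with the 3 unirradiated ones, with genotype as a term. This model left only 2 residual degrees of freedom, against 11 in the model of all 18 libraries. Of 42 histone genes tested, 13 were higher and 2 lower (edgeR quasi-likelihood test with Benjamini-Hochberg adjustment over 16857 genes). Of all genes tested, 22.6% were called higher and 22.5% lower. By class, H2B gave 9 higher of 11, H3 2 of 9, H4 1 of 11, H2A 1 of 6 and H1 0 of 5. The filter could keep a gene through the irradiated libraries alone, which partly fixed its direction. Hist1h2bf had 6, 8 and 8 counts in unirradiated WT, OPN-null and K14-OPN and 15, 18 and 48 in the irradiated ones. Hist1h2ac had 5, 4 and 0, then 20, 19 and 16. Both were kept in this way, so their calls carry no weight. The filter left out Hist1h2bn, Hist1h2bp and Hist3h2ba of H2B (pooled ratios 1.06, 3.13 and 1.17). With no filter H2B gave 9 higher of 14. The median log2 fold change was 0.39 over the 42 genes and −0.03 over all genes.

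**Figure D4:**
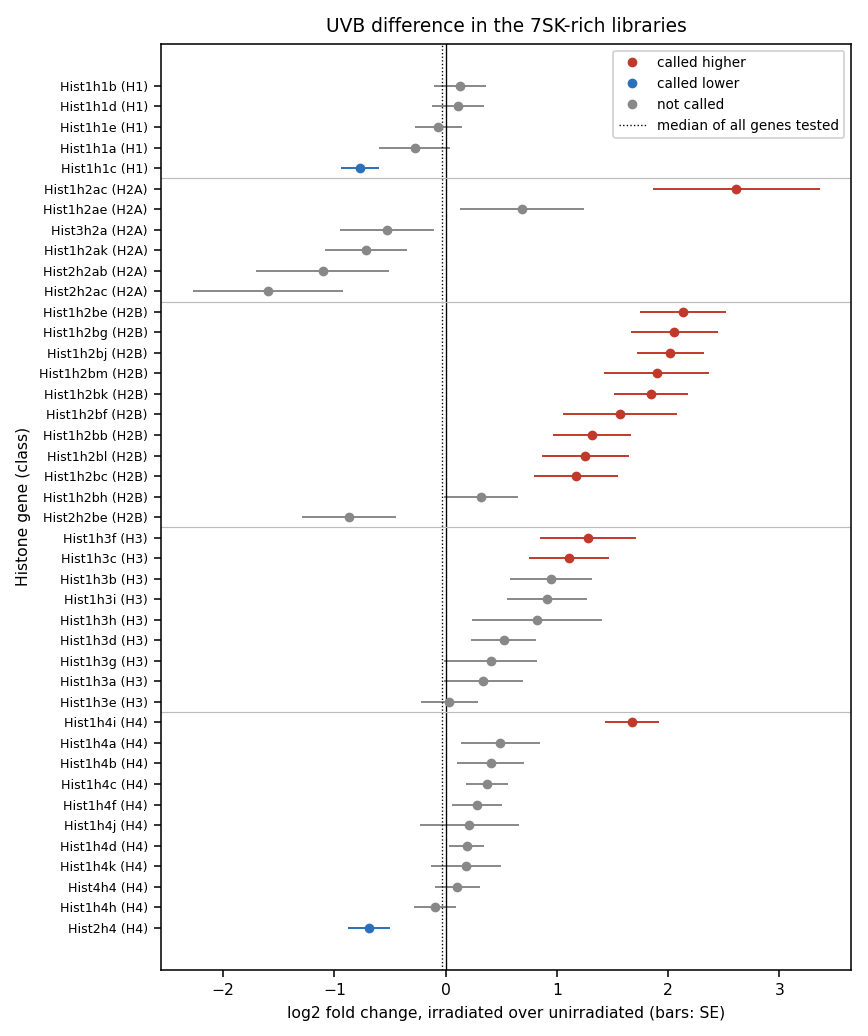
log2 fold change of irradiated over unirradiated 7SK-rich libraries for the 42 tested histone genes by class, with bars of 1 SE, the call by colour and a dotted line at the median of all genes tested (−0.03). The 9 called H2B genes lie between 1.18 and 2.13, and the genes of H1 lie between −0.77 and 0.13.

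Within H2B, Hist1h2be was at 2.98, 1.38 and 1.42 CPM in unirradiated WT, OPN-null and K14-OPN and at 6.22, 7.31 and 10.7 CPM in the irradiated ones. All irradiated libraries lay above all unirradiated ones, and the log2 fold change was 2.13 ± 0.383 (SE; edgeR adjusted p = 0.00222). Hist1h2bj was at 2.09, 1.28 and 1.98 CPM without UVB and at 6.27, 4.81 and 10.9 CPM after it (2.02 ± 0.300, edgeR adjusted p = 0.000823). Hist1h2bg was at 1.79, 1.48 and 1.42 CPM and at 4.50, 4.61 and 12.4 CPM (2.06 ± 0.389, edgeR adjusted p = 0.00288). These genes did not overlap between the groups, and in each the irradiated K14-OPN library was the highest. Hist1h2bk moved from 1.04, 1.33 and 1.70 CPM to 3.40, 3.48 and 8.37 CPM (1.85 ± 0.330, edgeR adjusted p = 0.00221). Hist1h2bm moved from 1.74, 1.09 and 0.779 CPM to 2.63, 4.51 and 6.54 CPM, and Hist1h2bb from 3.97, 2.62 and 2.76 CPM to 5.65, 5.64 and 13.1 CPM. Both were called, at 1.90 ± 0.472 and 1.32 ± 0.351. Hist1h2bf (1.57), Hist1h2bl (1.26) and Hist1h2bc (1.18) were called too, each with an edgeR adjusted p of 0.0281 to 0.0341. Hist1h2bc overlapped between the groups, at 5.27, 4.94 and 5.59 CPM without and 4.74, 14.3 and 21.2 CPM with UVB, so that its WT library did not share the direction. Hist1h2bh had a change of 0.32 ± 0.337 and Hist2h2be of −0.87 ± 0.422, and neither passed.

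The promoters of the 5 histone genes with the smallest p-values in this comparison, 4 of H2B and 1 of H4, are given because they moved together. They run 5′ to 3′ on the strand of the gene, from 250 bases before to 50 after the annotated start (RefSeq, GRCm38.p6). Capitals mark 3 motifs found on either strand. One is the TATA box, searched as TATAAA. Another is the CCAAT box. The last is ATTTGCAT, the octamer known from H2B promoters.
Hist1h2be (chr13:23621045-23621344, minus strand): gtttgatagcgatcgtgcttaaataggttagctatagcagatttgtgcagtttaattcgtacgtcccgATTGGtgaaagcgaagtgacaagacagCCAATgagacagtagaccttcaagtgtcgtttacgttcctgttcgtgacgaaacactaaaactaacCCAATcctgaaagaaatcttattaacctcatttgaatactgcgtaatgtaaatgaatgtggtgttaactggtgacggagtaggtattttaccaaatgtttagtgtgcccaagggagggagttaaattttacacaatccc
Hist1h2bg (chr13:23571150-23571449, plus strand): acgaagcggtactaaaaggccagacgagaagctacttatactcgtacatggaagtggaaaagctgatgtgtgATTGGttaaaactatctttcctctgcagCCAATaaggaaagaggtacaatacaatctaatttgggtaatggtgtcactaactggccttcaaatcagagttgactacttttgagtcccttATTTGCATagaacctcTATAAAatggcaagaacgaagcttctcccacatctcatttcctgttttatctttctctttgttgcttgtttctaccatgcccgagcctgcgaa
Hist1h2bj (chr13:22042948-22043247, plus strand): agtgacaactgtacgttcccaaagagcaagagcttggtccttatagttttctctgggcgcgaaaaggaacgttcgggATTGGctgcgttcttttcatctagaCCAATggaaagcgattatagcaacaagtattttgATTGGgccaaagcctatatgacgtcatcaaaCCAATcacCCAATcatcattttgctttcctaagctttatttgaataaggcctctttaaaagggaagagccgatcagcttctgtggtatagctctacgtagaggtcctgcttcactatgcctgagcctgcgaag
Hist1h2bk (chr13:22035571-22035870, plus strand): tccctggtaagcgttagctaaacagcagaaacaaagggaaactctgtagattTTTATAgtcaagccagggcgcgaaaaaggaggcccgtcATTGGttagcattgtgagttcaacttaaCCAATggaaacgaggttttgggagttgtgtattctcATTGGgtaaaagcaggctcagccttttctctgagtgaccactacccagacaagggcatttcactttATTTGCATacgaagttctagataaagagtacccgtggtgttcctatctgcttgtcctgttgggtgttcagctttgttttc
Hist1h4i (chr13:22041313-22041612, minus strand): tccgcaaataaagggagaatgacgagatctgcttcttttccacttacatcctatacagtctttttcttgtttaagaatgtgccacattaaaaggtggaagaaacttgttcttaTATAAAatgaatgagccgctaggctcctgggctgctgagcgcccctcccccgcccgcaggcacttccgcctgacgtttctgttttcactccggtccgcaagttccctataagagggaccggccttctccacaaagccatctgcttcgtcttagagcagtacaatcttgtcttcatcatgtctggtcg

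Of the 49 genes, 44 were matched to a RefSeq promoter of this length. TATAAA occurred in 63.6% of the 44 and in 13.6% of all 32851 promoters in the table. CCAAT occurred in 81.8% and 37.4%, in every matched H1, H2A, H2B and H3 gene but in 3 of 11 H4 genes. ATTTGCAT occurred in 8 of the 44 (18.2%), 4 of H2A and 4 of H2B, against 1.74% of all promoters. Some of these promoters overlap on opposite strands, among them Hist1h2ae with Hist1h2bg, Hist1h2ad with Hist1h2bf and Hist1h2ak with Hist1h2bn. A match in the shared part counts for both genes, and the octamer of Hist1h2ae and of Hist1h2bg is 1 site. Of the H2B genes shown, Hist1h2bg and Hist1h2bk had the octamer and Hist1h2be and Hist1h2bj had no match. The Hist1h2be sequence lies inside the gene model of Hist1h1e (23620629 to 23622558). It sits at the outer end of the long Hist1h2be model, which runs from 23583670 to 23621124. The stem-loop of Hist1h2be was found near the other end, at 23585526 to 23585551. The bases next to that stem-loop were therefore not searched, and the missing matches do not describe them. The motifs do not overlap one another in the sequences shown, and a match describes letters only.

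Outside H2B, 4 genes were called higher and 2 lower. Hist1h4i was at 2.58, 2.47 and 4.89 CPM in the unirradiated WT, OPN-null and K14-OPN 7SK-rich libraries and at 9.19, 7.16 and 14.1 CPM after UVB. The groups did not overlap, and the log2 fold change was 1.68 ± 0.242 (edgeR adjusted p = 0.000722), the smallest p among the histone genes. On chromosome 13 only Hist1h2ag, which had no count, lies between Hist1h4i and Hist1h2bj among the histone genes by symbol. The other H4 genes had changes between −0.69 and 0.49. Hist1h4d, among the most abundant of them, was at 28.1, 27.4 and 35.3 CPM without and 27.2, 32.6 and 40.9 CPM with UVB (0.19 ± 0.158). Hist2h4 fell, from 32.9, 41.3 and 47.4 CPM to 26.9, 19.2 and 26.8 CPM (−0.69 ± 0.192, edgeR adjusted p = 0.018).

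All 9 tested H3 genes had positive values, of which 2 passed. Hist1h3c was at 8.84, 3.36 and 10.1 CPM without UVB and at 7.99, 11.0 and 30.7 CPM after it (1.11 ± 0.359, edgeR adjusted p = 0.0326). Hist1h3f was at 3.88, 1.93 and 4.18 CPM and at 3.35, 7.31 and 15.8 CPM (1.28 ± 0.430, edgeR adjusted p = 0.0379). In both the WT libraries were close to each other and the groups overlapped, the irradiated K14-OPN library being the highest. Hist1h3e, the most abundant H3 gene by CPM, was at 10.7, 11.4 and 13.9 CPM against 7.56, 9.91 and 21.7 CPM, a change of 0.03.

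Hist1h1c fell after UVB in the 7SK-rich libraries. It was at 94.2, 96.8 and 104 CPM in unirradiated WT, OPN-null and K14-OPN and at 46.0, 50.9 and 74.4 CPM in the irradiated ones, a log2 fold change of −0.77 ± 0.170 (edgeR adjusted p = 0.00632). The groups did not overlap. The Hist1h1c call was lost when irradiated WT 8 or unirradiated WT 11 was left out, at changes of −0.65 and −0.67. The other 4 H1 genes had changes of −0.28 to 0.13, none of which passed, and Hist1h1e was at 50.1, 35.6 and 46.6 CPM against 30.5, 36.5 and 58.7 CPM. In H2A, Hist1h2ac went from 0.248, 0.198 and 0 CPM to 0.957, 0.932 and 0.812 CPM (2.62 ± 0.750, edgeR adjusted p = 0.0202), a change that rests on few reads. Hist3h2a had a change of −0.52 and the chromosome 3 genes Hist2h2ac and Hist2h2ab of −1.60 and −1.11, none called.

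Counted without a model, all 3 irradiated libraries lay above all 3 unirradiated ones in 9 of the 42 genes, 7 of them H2B, and below them in 4. Hist1h2bf and Hist1h2ac, which the filter kept through the irradiated libraries alone, are among the 9. Of all genes tested, 28.5% lay all above and 29.6% all below. Left out 1 at a time, the libraries left 6 to 13 of the 15 calls, and the sign stayed in all 15 each time. The fewest were left without the unirradiated OPN-null library, where 4 H2B genes were still called higher, and without the irradiated one, where 8 of the 15 and 6 H2B genes were left. Without either K14-OPN library 10 of the 15 and 6 H2B genes were left, and without a WT library 12 or 13 and 8 H2B genes. Hist1h4i, Hist1h2be, Hist1h2bg, Hist1h2bj and Hist1h2bk kept their calls each time, and Hist1h2bf lost its call each time. The calls of Hist1h3c, Hist1h3f, Hist1h2bc and Hist1h2bl were lost without any 1 of the OPN-null or K14-OPN libraries. Those of Hist2h4 and Hist1h2ac were lost without either OPN-null library, and that of Hist1h2ac also without irradiated WT 8.

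The makeup of the histone pool moved with these genes. H2B held 6.52, 5.71 and 5.0% of histone counts in the unirradiated WT, OPN-null and K14-OPN 7SK-rich libraries and 12.8, 14.5 and 15.9% in the irradiated ones. H1 held 49.1, 46.9 and 43.3% without and 33.7, 35.0 and 33.6% with UVB. In both classes the groups did not overlap. H3 went from 10.2, 8.51 and 11.3% to 10.4, 14.0 and 19.6%, and H4 from 32.2, 36.4 and 38.8% to 40.2, 35.2 and 30.1%, so that its share was higher with UVB in WT and lower in the other genotypes. H2A stayed under 3% throughout, with 2.05, 2.5 and 1.61% against 2.8, 1.24 and 0.882%. The ratio of H2B to H4 counts was 0.203, 0.157 and 0.129 without UVB and 0.318, 0.412 and 0.528 after it. The summed histone level itself did not separate, at 397, 361 and 476 CPM without and 323, 363 and 638 CPM with UVB.

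**Figure D5:**
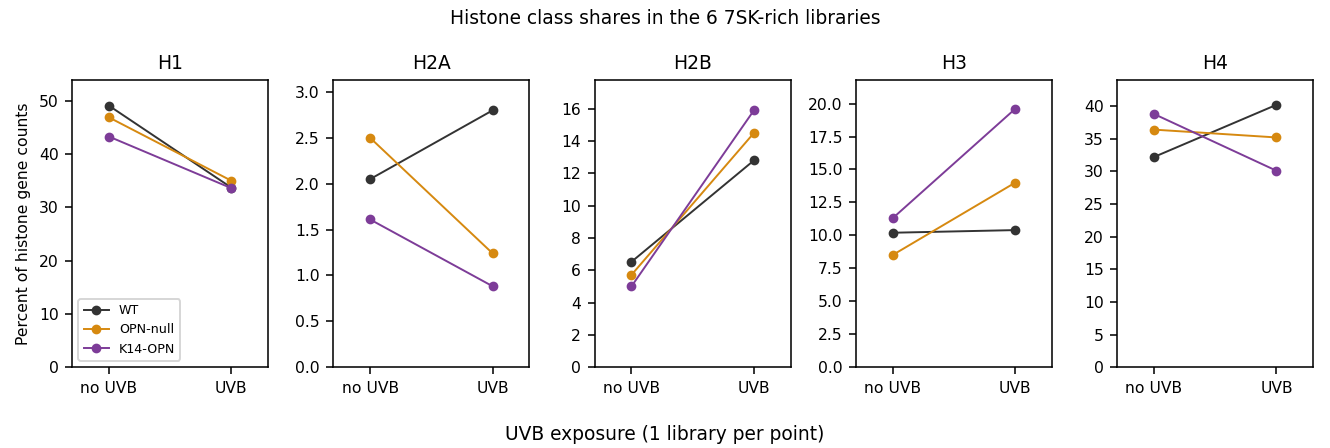
Share of histone gene counts (percent, axes from 0 and of different height) held by each class in the 6 7SK-rich libraries, with 1 line per genotype from its unirradiated to its irradiated library. The H2B share is 5.0 to 6.52% without and 12.8 to 15.9% with UVB, and the H1 share 43.3 to 49.1% and 33.6 to 35.0%.

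Marker RNA of several other cell types differed with UVB in the same 6 libraries. Numbers of cells were not measured. The summed level of 6 dermal fibroblast markers was 2830 to 4400 CPM without and 85.1 to 382 CPM with UVB, and that of 5 T cell markers 34.8 to 38.7 and 8.98 to 12.8 CPM. Langerhans cell markers (4 genes) were at 318 to 415 and 196 to 241 CPM, and 6 hair matrix markers at 64.8 to 81.6 and 41.3 to 45.6 CPM, with Shh at 0 after UVB. Neutrophil markers (4 genes) were at 7.65 to 42.5 CPM, with Mpo at 0, and at 179 to 964 CPM. Keratinocyte markers overlapped, at 9660 to 15000 and 11800 to 19400 CPM, as did macrophage markers (4 genes), at 43.0 to 60.2 and 47.1 to 84.3 CPM. The part of these cells in the histone differences was not tested.

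Cell cycle and histone supply genes were read in the same comparison, against the 22.6 and 22.5% of all genes. Of the S phase list, 10 of 38 were higher and 5 lower, including the ribonucleotide reductase subunit Rrm2 at 1.5, the sliding clamp Pcna at 1.48 and E2f2 at −1.88. The mitosis list had 4 higher and 0 lower of 19, led by Cdc20 at 1.64. In histone mRNA processing 11 of 24 were higher and 2 lower, among them Slbp at 1.00 ± 0.185 (edgeR adjusted p = 0.00257), whose protein binds the stem-loop, and Lsm11 of the U7 particle at −0.83 ± 0.213. Chaperones had 7 higher and 2 lower of 20, with Hat1, which acetylates new H4, at 1.34. Replacement histones had 3 higher and 3 lower of 11, with H2afv at −1.70, H2afj at 1.21 and H2afx, known for its part at DNA breaks, at 0.73. RNAs without a poly(A) tail had 0 higher and 5 lower of 12 (median −1.11), so that the level of such RNAs also differed between these groups.

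In the Lars2-rich libraries 26 histone genes could be tested between 7 irradiated and 5 unirradiated libraries, and 2 passed (edgeR quasi-likelihood test with Benjamini-Hochberg adjustment over 18099 genes; 21.3% of all genes). Hist1h4a had no count in the 5 unirradiated libraries and 182 counts in the 7 irradiated ones, 0.678 to 3.17 CPM in each, at least 11.3-fold higher against a floor of 3 counts over the group. Hist1h4a was at 2.73, 2.37 and 2.34 CPM without and 2.77, 2.50 and 5.53 CPM with UVB in the 7SK-rich libraries (0.49 ± 0.353). In the Lars2-rich libraries Hist1h1e fell, from 1.46 to 5.70 CPM down to 0 to 0.878 CPM, without overlap (−2.82, edgeR adjusted p = 0.042). That separation rests on TMM scaling, and Hist1h1e had 49 counts in each of the 2 groups. Unirradiated K14-OPN 11 had 14 of 15555921 gene counts, a smaller share than the 10 of 9410712 in irradiated OPN-null 15. The unirradiated libraries of this kind were shallow, with 102 to 1680 histone counts. A test of the UVB difference between the kinds called 0 of 41 genes (0% of all genes), with 7 at an unadjusted p under 0.05 (17.1%, against 9.36% of all genes) and 1 called by DESeq2. Hist1h4a and Hist1h1e were at −7.07 ± 1.77 and 2.66 ± 0.791 in it, with edgeR adjusted p of 0.334 and 0.379.

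Averaged over genotypes in all 18 libraries with kind as a term, 4 of 41 genes were higher after UVB and 1 lower (15.6 and 16.7% of all genes). Hist1h2be was called at 2.29 ± 0.523 (edgeR adjusted p = 0.00331) and Hist1h4i at 1.47 ± 0.397 (edgeR adjusted p = 0.00959), and both were positive in either kind. In the Lars2-rich libraries Hist1h2be was at 0, 0.209, 0.373, 0.879 and 1.3 CPM without UVB and at 0.581 to 4.58 CPM (median 3.32) after it, and Hist1h4i at 0, 2.08, 3.08, 6.72 and 7.62 CPM and at 5.52 to 14.1 CPM (median 10.1). Both genes overlapped there between the groups, and within that kind alone neither passed (edgeR adjusted p = 0.0617 and 0.118).

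The other calls of that model rested on part of the libraries and on the processing. Without library kind as a term, Hist1h2bj, Hist1h4a and Hist1h1e were not called (edgeR adjusted p = 0.472, 0.404 and 0.764). With total gene counts in place of TMM, the call of Hist1h1e was lost (−0.957, edgeR adjusted p = 0.0979). Hist1h2bj (2.54, edgeR adjusted p = 0.0203) was not called without the irradiated OPN-null 16, K14-OPN 1 or the unirradiated OPN-null 10 or WT 11, all 7SK-rich, at adjusted p of 0.0699 to 0.927. Hist1h4a (2.46, edgeR adjusted p = 0.0345) was lost in 7 of the 18 fits that leave out 1 library, at 0.0505 to 0.105. Hist1h1e (−1.66, edgeR adjusted p = 0.0225) was lost without OPN-null 9 (0.0651) or WT 10 (0.099), and was at −0.69 without all 3 libraries that stood apart.

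By genotype, 0 of 41 genes were called in WT (3.73% of all genes) and 0 in K14-OPN (7.71%), with 1 each by DESeq2. At an unadjusted p under 0.05 there were 4 (9.76%) and 2 (4.88%), against 19.5 and 24.8% of all genes. In OPN-null 2 were called (13.7% of all genes). Hist1h4i was at 0, 2.47 and 3.08 CPM in the unirradiated and 5.52 to 14.1 CPM in the 4 irradiated OPN-null libraries, without overlap (2.12 ± 0.674, edgeR adjusted p = 0.0457). Hist1h3f (−5.72, edgeR adjusted p = 0.0321) rested on 12 counts, 8.54 CPM, in the shallow library OPN-null 9. The other unirradiated OPN-null libraries were at 0 and 1.93 CPM. Without that library the UVB value averaged over genotypes turned from −1.39 to 1.36.

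No histone gene was called between genotypes. WT against OPN-null after UVB called 0 of 41 (0.00529% of all genes), and the other 5 contrasts between genotypes, with or without UVB, also called 0 of 41 (0% of all genes). At an unadjusted p under 0.05 there were 4 genes for WT and 1 for K14-OPN against OPN-null after UVB, 3 and 3 without UVB, and 1 and 0 for K14-OPN against WT. The shares of all genes at this p were 4.75 and 9.15% after UVB, 6.19 and 8.49% without it, and 4.46 and 2.28% for K14-OPN against WT. Hist1h4c stood 2.72 ± 1.02 above OPN-null in irradiated WT and 2.45 ± 0.980 in irradiated K14-OPN, with edgeR adjusted p of 0.919 and 0.453. These contrasts share the OPN-null libraries. In no gene did the response to UVB in WT or in K14-OPN pass against that in OPN-null (0 of 41 each, with 2 and 3 genes at an unadjusted p under 0.05, or 4.88 and 7.32%, against 4.04 and 8.16% of all genes). With 1 7SK-rich library per group, the higher sum of the irradiated K14-OPN library, 638 CPM against 323 in WT and 363 in OPN-null, has no replicate.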

How the data were processed

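The authors deposited raw counts per gene for 18 libraries in a single table. Per the submitters' processing notes, HTSeq 0.11.3, STAR 2.7.5a, Trim Galore 0.6.5 and bcl2fastq 2.18.0.12 were used with GRCm38. Neither the annotation release nor the strand setting of the counting is given in the sources used here. Of 56246 genes, 55144 were matched by identifier to a GENCODE M21 symbol, and 5 summary lines were left out of library sizes. Transcript sequences are those of GENCODE M21 and promoters those of RefSeq.

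The tests used edgeR 4.0.16 in R 4.3.3 (glmQLFit and glmQLFTest, TMM, filterByExpr with minimum count 10 and minimum total 15, prior count 0.125) and limma 3.58.1, with DESeq2 1.42.0 as an alternative. The model had 6 group means and library kind, with separate models within each kind. Calls required a two-sided p below 0.05 after Benjamini-Hochberg adjustment across every tested gene. The biological coefficient of variation was 0.595 with library kind and 0.816 without. The procedure was tested on simulated data. The SE given with an edgeR fold change is its absolute value divided by the square root of the quasi-likelihood F statistic. It was thus derived from the test and not estimated separately. CPM and RPKM use TMM-scaled library sizes. Floors and intervals cover counting error only, because reads need not be independent molecules where no molecular identifiers are stated. Every pair of libraries within a group differed by more than sampling noise.

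The genes, lists and library kinds were chosen with earlier results of these data known. Values per library are given for the 2 genes of highest mean CPM in each class, up to 10 called after UVB by smallest p, and the 3 highest and 3 lowest fold changes between kinds. Other genes were named after their values were seen, and so were the alternatives without TMM and without a genotype term. The remaining alternatives were RLE scaling, DESeq2, no filter, no kind term, Lars2-rich libraries only, only the groups compared, a replicate block, and leaving out libraries.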

Additional observations from a re-analysis of the deposited data

Results flagged for a closer look

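In the irradiated OPN-null group 1 of the 4 libraries stood apart from the others in 13 of the genes with values per library. In 12 of these it was OPN-null 16, the only 7SK-rich library of the group, which was the highest. The gap to the nearest library, as a share of the group's range, was 1.0 for Hist1h3e, Hist1h2bj, Hist1h2bm, Hist1h3f, Hist1h2bb, Hist1h3a and Hist1h2bl. It was 0.976 for Hist1h1e, 0.974 for Hist1h4d, 0.957 for Hist2h4, 0.924 for Hist1h2bg and 0.871 for Hist1h3b. For the summed level of all 49 genes it was 0.868, with 363 CPM in OPN-null 16 and 95 to 130 CPM in the other libraries. For Hist1h1c (0.961) the library apart was OPN-null 15, the lowest at 28.4 CPM. Chance alone flags about 1 in 20 groups, but these genes share the same libraries and some were picked by their fold between kinds. The gaps of OPN-null 16 therefore repeat the difference between kinds and are no separate result.

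Hist1h2al, annotated as a pseudogene and so outside the 49 genes, had 2695 counts over the 18 libraries. Of these 2479 were in the 7SK-rich libraries (9.17 to 41.7 CPM) and 216 in the Lars2-rich ones (0 to 2.87 CPM). Within the 7SK-rich libraries it was at 23.3 to 41.7 CPM without UVB and at 9.17 to 18.1 CPM after it, without overlap. Reads of its near copies cannot be told apart from its own.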

How the results depend on the processing

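Of 363 counts of called genes tried again, 324 stayed within 1.5 times. These include comparisons that called 0 genes at first, where a count that stays at 0 says little. Values of named genes were retried between kinds, for UVB averaged over genotypes, and for UVB in the kind with 1 library per group. Of these 1259 values, 1133 stayed the same, 74 lost the call, 12 gained a call and 40 turned direction without a call. None turned direction while called. Averaged over genotypes, 5 genes were called, but 2 without library kind and 2 in Lars2-rich libraries only. With DESeq2 the calls were 1 for UVB in WT, 6 in OPN-null, 1 in K14-OPN, 4 in Lars2-rich libraries and 1 for the difference between kinds. With no filter they were 4 in OPN-null, 5 in Lars2-rich libraries, and 1 each for K14-OPN against OPN-null without UVB, for the K14-OPN minus OPN-null response and for the difference between kinds. For UVB in OPN-null they were 0 without library kind and 1 in a fit of the 2 groups. The cause of these shifts was not tested.

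Leaving out 1 library gave 31 to 38 calls between kinds, 3 to 6 averaged over genotypes, 7 to 14 in 7SK-rich libraries, 1 to 5 in Lars2-rich libraries, 0 to 3 in OPN-null and 0 to 1 in K14-OPN. It gave 0 to 0 in WT, in the contrasts between genotypes and in the differences of response. The Lars2-rich fit could not be made without WT 10. K14-OPN libraries share the numbers 1 and 2. After group and kind were fitted, libraries of the same number had correlations of −0.165 and 0.186, and those of crossed numbers −0.403 and 0.049. So few values cannot decide whether the numbers pair the libraries. The replicate block called 0 genes, as without it. RLE scaling shifted the median of all genes by at most 0.08 on the log2 scale. TMM factors ran from 0.314 in unirradiated OPN-null 9 to 1.409 in irradiated K14-OPN 3. With total gene counts in place of TMM, Hist1h2bc (1.29, edgeR adjusted p = 0.0171) and Hist1h4d (1.48, 0.0244) were called averaged over genotypes. The Hist1h1e call was lost there (−0.957, edgeR adjusted p = 0.0979), and Hist1h1c turned to 0.274 without a call. For UVB in the 7SK-rich libraries all 15 calls stayed. Depth limits what a count of 0 shows in the Lars2-rich libraries, which had 102 to 3859 histone counts.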
